A study of Mus musculus with 6 samples.

Results

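Guidance genes of the ephrin, semaphorin, Slit and netrin systems were followed in cultured mouse cells of a pair of pluripotent states, embryonic stem cells (mESC) and the epiblast-like cells (EpiLC) derived from them. A gene was a member if its symbol matched Epha, Ephb, Efna, Efnb, Sema, Plxn, Nrp, Slit, Robo, Ntn or Unc5 with the family's number and letter, and if a probe carried that symbol alone. The rule reads symbols and no measured value, although these families were proposed with results of the data known, and 66 of 22180 measured genes were members (69 probes). They were 13 Eph receptors, 8 ephrins, 20 semaphorins, 9 plexins, 2 neuropilins, 3 Slits, 4 Robos, 3 netrins and 4 Unc5 receptors. Symbols of all 66 were found in the RefSeq gene table unchanged. Another 2 probes carried Ntn5 together with Sec1 and were not used, because their signal cannot be given to 1 gene.

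Total RNA of the EB3 stem cell line was measured on Affymetrix Mouse Gene 2.0 ST arrays. The stem cells had grown in N2B27 medium with LIF and BMP4, and the EpiLC had been made from them over 2 days on serum-coated dishes in N2B27 with Activin A (20 ng/ml) and bFGF (12 ng/ml), which moves the cells towards the epiblast after implantation. Each state was untreated, given 3 µM CHIR99021 for 24 hours, or given 3 µM CHIR99021 with 1 µM PD0325901 for 24 hours. CHIR99021 (CHIR) blocks GSK3 and so activates Wnt/beta-catenin signalling, and PD0325901 (PD) blocks MEK and so the ERK1/2 pathway. Each of the 6 groups was 1 array of cells from 1 line, and PD was given only on top of CHIR. The labels do not say whether the 6 cultures were independent. With 1 array per group, p-values rest on how far these arrays depart from added effects of state and treatment, and not on replicates. The series title names Activin A and ERK1/2 inhibition in stem cell propagation as the subject.

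Eph receptors are receptor tyrosine kinases, and ephrins are their membrane-bound ligands, of which the A class is held by a lipid anchor and the B class spans the membrane, so that signals pass in both directions between touching cells. Semaphorins act through plexins, and most of the secreted class 3 semaphorins also need a neuropilin as co-receptor. Slits are secreted ligands of Robo receptors, and netrins are secreted ligands of Dcc, neogenin and the Unc5 receptors. All are known from axon pathfinding, and in the early embryo Eph-ephrin signalling also keeps cell groups apart, with several of these ligands present in streak and mesoderm.

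Upstream sequences of 3 members are shown because Plxna2 and Slit2 had large CHIR differences in EpiLC and Nrp2 was the member with a TCF/LEF match, the motif of the factors that beta-catenin binds. The 250 bases before the gene start were read from RefSeq's promoter table (GRCm38.p6), which held a window for 57 of the 66 members and none for Ntn1. Both strands were searched for ATCAAAG (the core of TCF/LEF sites), TCACACC (a T-box site) and CCGGAA (the core of ETS sites), and matches are in capitals. The Plxna2 window is chr1:194619579-194619828 (plus strand), the Slit2 window chr5:47982905-47983154 (plus strand) and the Nrp2 window chr1:62703067-62703316 (plus strand).
Plxna2: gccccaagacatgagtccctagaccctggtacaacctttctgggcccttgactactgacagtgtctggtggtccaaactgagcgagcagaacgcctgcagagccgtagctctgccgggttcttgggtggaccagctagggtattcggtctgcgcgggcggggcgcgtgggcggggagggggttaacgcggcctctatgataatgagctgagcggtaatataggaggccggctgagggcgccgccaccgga
Slit2: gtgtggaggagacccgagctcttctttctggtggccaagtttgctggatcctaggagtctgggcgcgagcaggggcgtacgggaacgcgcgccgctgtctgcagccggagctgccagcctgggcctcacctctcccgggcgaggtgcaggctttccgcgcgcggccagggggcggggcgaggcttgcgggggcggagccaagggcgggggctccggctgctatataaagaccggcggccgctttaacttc
Nrp2: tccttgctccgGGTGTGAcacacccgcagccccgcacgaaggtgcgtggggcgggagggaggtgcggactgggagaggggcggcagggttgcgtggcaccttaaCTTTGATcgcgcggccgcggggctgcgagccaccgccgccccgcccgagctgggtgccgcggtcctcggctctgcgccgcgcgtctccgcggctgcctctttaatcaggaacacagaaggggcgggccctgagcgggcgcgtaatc
Nrp2 held the TCF/LEF core on the minus strand beginning 146 bases before the start, and it also held the T-box letters, beginning 239 bases before the start. The TCF/LEF core was in 1 of 73 windows of members and in 3.21% of all 32851 windows. The T-box letters were in 3 windows of members (3.33% of all windows) and the ETS core in 6 (12.0% of all windows). The windows of Plxna2, Sema3c, Efnb1, Slit2 and Epha1, genes with large treatment differences, held none of the 3 motifs. A match or its lack describes these letters only.

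The naive pluripotency markers followed the state labels under each treatment, and the formative epiblast markers did so fully only in untreated cells. All 6 naive markers were at least 2-fold lower in EpiLC than in mESC in each of the 3 treatment pairs. Of 4 formative markers, 4 were at least 2-fold higher in EpiLC untreated, 2 (Fgf5, Otx2) under CHIR and 1 (Pou3f1) under CHIR with PD. Their summed intensity in EpiLC was 7669 untreated, 2482 with CHIR and 1032 with both inhibitors, against 2895, 1445 and 949 in mESC. The summed intensity of streak and mesoderm markers stood apart on 1 array, that of EpiLC with CHIR. It was 10709 there against 611 to 959 on the other 5 arrays. On that array 4 of 7 markers (Mixl1, Msgn1, Tbx6, Lhx1) were at least 2-fold higher than in untreated EpiLC. Singly, Mixl1 was also higher with CHIR in mESC, by 3.28 on the log2 scale, and lower again with PD on CHIR (-3.26). Eomes was at 345 in untreated EpiLC already, and its CHIR difference in EpiLC was 0.18. Primitive endoderm markers, of which mesoderm shares Gata6 and Pdgfra, summed to 1184 on the EpiLC CHIR array and to 276 to 331 elsewhere. Neural markers summed to 683 to 1524, endothelial markers to 231 to 637 and fibroblast markers, listed for feeder cells, to 545 to 1429, and 0 of all these markers lay at 0 because the lowest deposited value was 16. In bulk RNA, fewer cells of a type and less RNA per cell cannot be told apart.

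**Figure D1:**
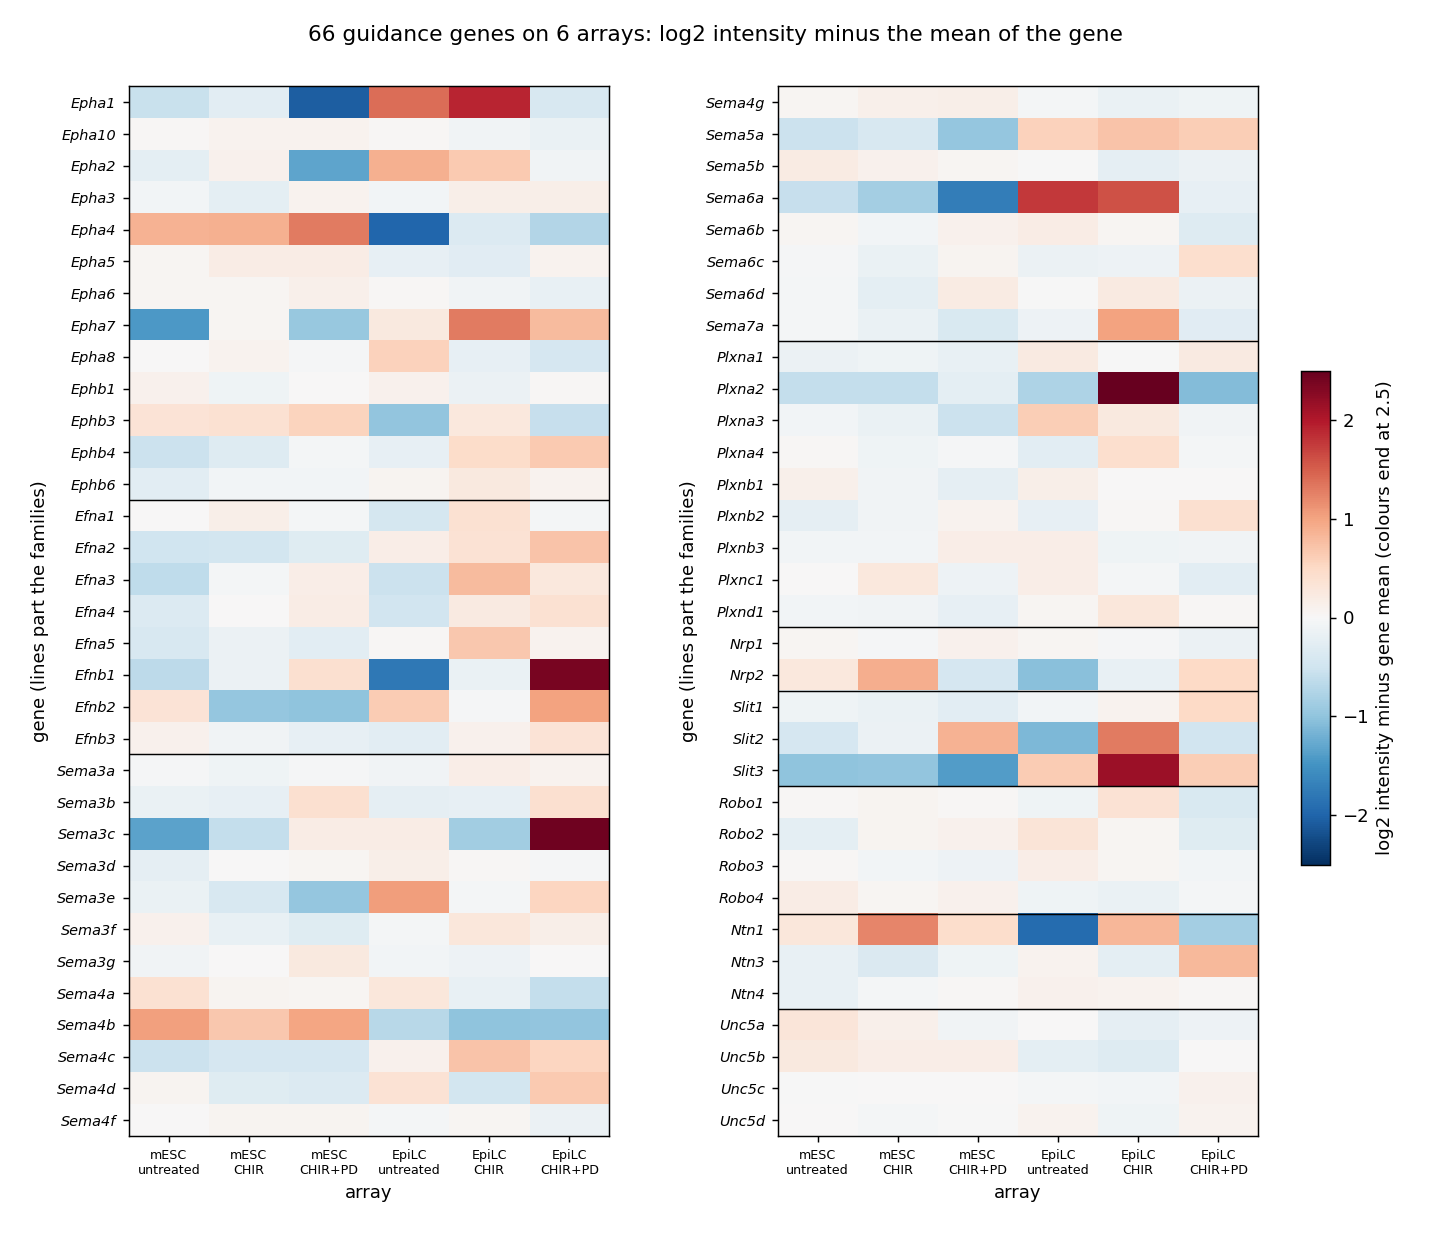
Colour map of the 66 members (rows, with lines between the families) on the 6 arrays (columns). Colour gives log2 intensity minus the mean of that gene over the arrays; 27 members span at least 2-fold, with the darkest cells in Plxna2 on the EpiLC CHIR array and in Efnb1 and Sema3c on the EpiLC array with CHIR and PD.

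Many guidance genes spanned a wide range over the 6 arrays. Of the 66 members, 27 (40.9%) spanned at least 2-fold from their lowest to their highest array, against 13.9% of all genes, and their median log2 range was 0.66 against 0.49. Only 2 members (Epha5 and Robo3) lay under the lower quartile of all 6 arrays, where 2833 of the 22180 genes lay. The comparison with all genes thus sets these families against a larger share of very dim genes. In mean log2 intensity, 35 of the 66 members and 11090 of all genes were at or above the median of all genes. The varying members were not spread evenly. They were 7 of 13 Eph receptors, 5 of 8 ephrins, 8 of 20 semaphorins, 2 of 9 plexins, 2 of 3 Slits, 2 of 3 netrins, 1 of 2 neuropilins and 0 of 8 Robo and Unc5 receptors. Slit1 and Ntn4 were the Slit and the netrin that stayed below 2-fold.

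EpiLC differed from mESC over all 3 treatments in 12 members. In 1 limma model of state and treatment (3 arrays per state), 10 members rose and 2 fell in EpiLC, while 4.15% of all genes rose and 4.15% fell (8.30% in all). Those that rose were the Eph receptors Epha1, Epha2, Epha7 and Ephb4, the ephrin Efna2, the semaphorins Sema4c, Sema5a and Sema6a, the plexin Plxna3 and the ligand Slit3. The 2 that fell were Epha4 and Sema4b. The members' median log2 difference was 0.10 and that of all genes -0.02. In 8 of the 12 the arrays of the 2 states did not overlap, and 22 of all 66 members did not overlap between the states (33.3%), where 26.8% of all genes did not. Calls on Epha1, Epha4, Epha7, Sema4b, Sema5a, Sema6a and Slit3 held without each treatment's pair of arrays in turn and with a constant of 4 or 64 in place of 16 in the intensities, whereas those on Epha2, Ephb4, Efna2, Sema4c and Plxna3 were each lost in at least 1 of these. Without moderation of the variances 0 of the 12 passed, and without a treatment term 6 did.

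**Figure D2:**
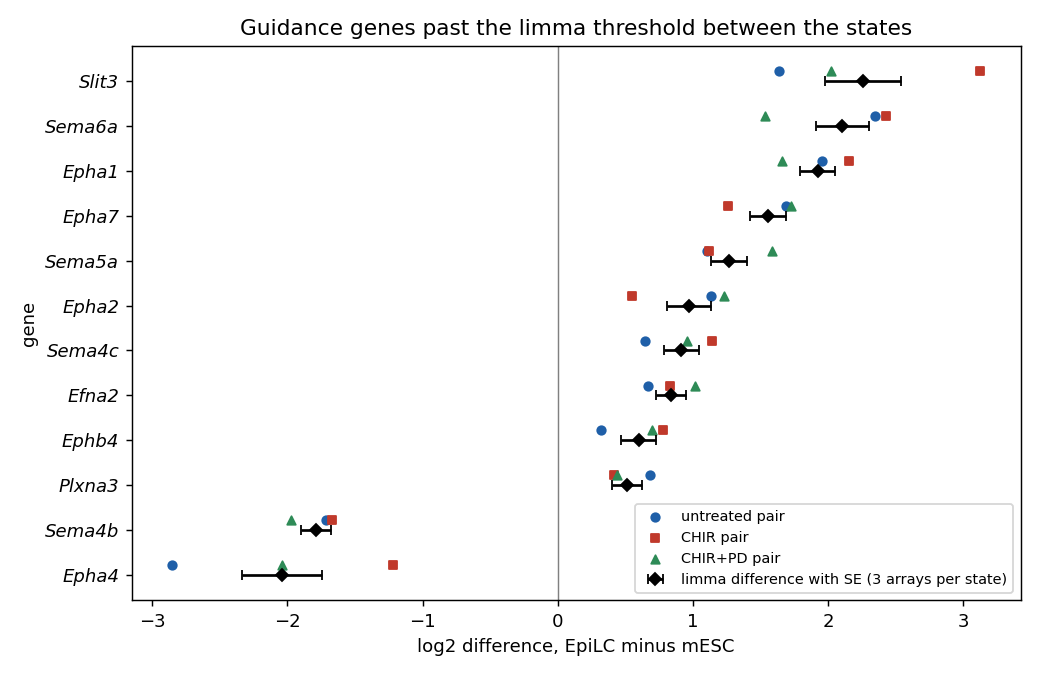
Log2 differences, EpiLC minus mESC, of the 12 members past the limma threshold. Black diamonds with bars are the fitted difference and its SE over 3 arrays per state, and coloured points are the 3 single pairs of arrays, which lie on the same side of 0 for each of the 12.

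In single pairs of arrays, which have no error and no test, the share of members differing at least 2-fold was 21.2% between the untreated states, 18.2% under CHIR and 25.8% under CHIR with PD. Between the untreated states 8 members were higher in EpiLC and 6 lower (1.47% and 2.30% of all genes, 3.76% in all). Under CHIR the counts were 9 and 3 (2.45% and 2.63% of all genes, 5.08% in all), and under CHIR with PD they were 12 and 5 (3.29% and 3.11% of all genes, 6.39% in all). With a constant of 64 the untreated count of 14 became 8, leaving out Efnb1, Ephb3, Nrp2, Sema3c, Sema3e and Sema5a, and the count of 12 under CHIR became 7, leaving out Epha7, Nrp2, Sema4c, Sema5a and Sema7a.

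CHIR was followed by 2-fold differences in more guidance genes in EpiLC than in mESC, and the same held over all genes. In EpiLC, 10 members were at least 2-fold higher and 2 lower (1.77% and 0.929% of all genes, 2.70% in all), and in mESC 1 was higher and 1 lower (0.185% and 0.153% of all genes, 0.338% in all). The 10 were Plxna2, Ntn1, Slit2, Slit3, Epha4, Efnb1, Efna3, Ephb3, Sema7a and Epha7, and the 2 lower ones Sema3c and Sema3e. Whether the 2 states differ in their response cannot be tested with 1 array per group. Over both states, limma called 0 of 66 members for CHIR (0.00% of all genes), with 9 members at an unadjusted p under 0.05 (7.27% of all genes, 4.15% higher and 3.12% lower). With a constant of 64 the EpiLC count became 7, without Epha7, Ephb3, Sema3c, Sema3e and Sema7a, and the mESC count 1, without Epha7.

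Addition of PD to CHIR was compared with the same CHIR arrays, so these differences share an array with those for CHIR. In EpiLC 7 members were at least 2-fold lower and 5 higher (1.01% and 1.04% of all genes, 2.05% in all). The lower ones were Plxna2, Epha1, Sema6a, Slit2, Ntn1, Slit3 and Sema7a, and the higher ones Sema3c, Efnb1, Efnb2, Ntn3 and Sema4d, the last named after its values were seen. In mESC, Epha1, Epha2 and Nrp2 were lower and Slit2 higher (0.523% and 0.252% of all genes, 0.775% in all). Limma called 0 of 66 members for this step (0.0180% of all genes lower and 0.00% higher), with 11 members at an unadjusted p under 0.05 (5.77% of all genes, 2.94% higher and 2.84% lower). Against untreated cells, CHIR with PD gave 3 higher and 4 lower members in mESC (0.618% and 0.848% of all genes, 1.47% in all) and 5 higher and 3 lower in EpiLC (2.62% and 1.49% of all genes, 4.11% in all). Limma called 0 of 66 there (0.0271% of all genes lower), with 14 at an unadjusted p under 0.05 (14.3% of all genes, 7.46% higher and 6.85% lower). With a constant of 64 these counts of 7 and 8 became 2 and 5. With trend and robust moderation Epha1 passed as lower in both fitted comparisons with PD, and without the CHIR pair Epha1 (lower) and Sema3c (higher) passed against untreated cells.

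**Figure D3:**
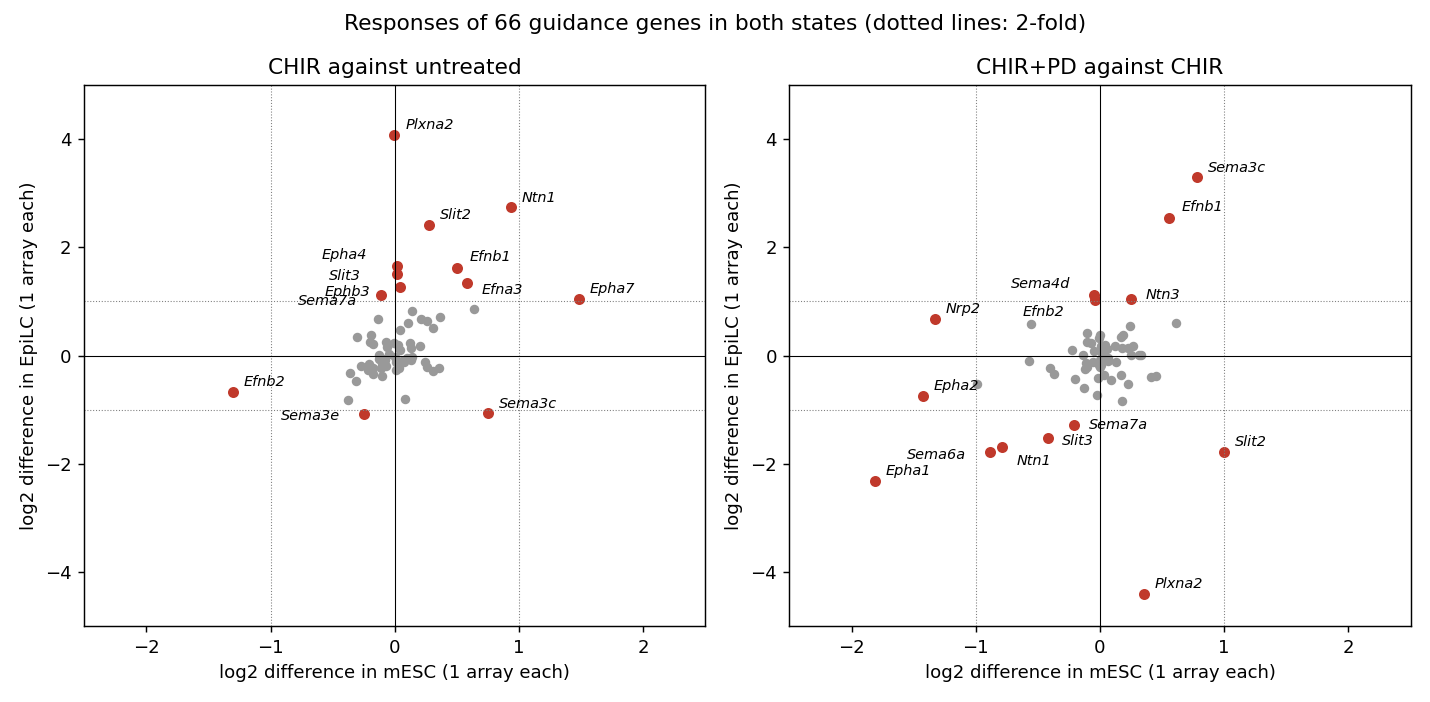
Log2 differences of the 66 members in mESC (horizontal axis) and EpiLC (vertical axis), each from 1 array against 1 array, for CHIR against untreated (left) and CHIR with PD against CHIR (right). Red points with names differ at least 2-fold (dotted lines) in 1 state or more; Slit2 lies in the lower right of the PD panel at 1.00 in mESC and -1.77 in EpiLC.

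Among ephrins, the B-class ligand Efnb1 had the widest range. Its intensity in mESC was 163 untreated, 231 with CHIR and 339.6 with CHIR and PD, and in EpiLC it was 74.1, 228 and 1329. It was lowest in untreated EpiLC and highest in EpiLC with both inhibitors, and each step was upward in both states. The log2 difference for PD on CHIR was 0.56 in mESC and 2.54 in EpiLC. EpiLC against mESC was -1.14 untreated, -0.01 under CHIR and 1.97 under both inhibitors, so the sign of the state difference turned with treatment, and the fitted state difference was not called.

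Efnb2, the other varying B-class ligand and the preferred ligand of Ephb4, took another course. It was at 342 in untreated mESC, 139 with CHIR and 134 with both inhibitors, and at 419, 264 and 539.6 in EpiLC. Both states were lower with CHIR (log2 differences -1.30 and -0.66), and PD on CHIR was followed by a value of -0.04 in mESC and 1.03 in EpiLC. Under both inhibitors Efnb2 was higher in EpiLC than in mESC by 2.00 on the log2 scale. The third B-class ligand, Efnb3, spanned 0.62.

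Of the A-class ephrins, Efna2 was called between the states. It rose in EpiLC by 0.84 (SE 0.11, limma adjusted p = 0.0141), from 134, 137 and 154 in untreated, CHIR and doubly treated mESC to 213, 244 and 310.0 in EpiLC, and the states did not overlap. The call was lost without the CHIR pair. Efna3 was at 151, 227 and 265 in mESC and 162, 408 and 285 in EpiLC, which is 1.33 higher with CHIR in EpiLC and 0.58 in mESC on the log2 scale. Efna1, Efna3 and Efna4 follow each other with no other coding gene between neighbours in the RefSeq gene table. Their CHIR differences were 0.14, 0.58 and 0.37 in mESC and 0.82, 1.33 and 0.71 in EpiLC, all upward, with none called in the fit over both states.

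Eph receptors went in both directions between the states. Epha1, a receptor of A-class ephrins, was at 231, 286 and 81.3 in untreated, CHIR and doubly treated mESC and at 896, 1274 and 257 in EpiLC. It was higher in EpiLC under each treatment, although the doubly treated EpiLC value lay inside the range of mESC. Epha1 rose in EpiLC by 1.92 (SE 0.13, limma adjusted p = 0.0025). PD on CHIR was followed by log2 differences of -1.82 in mESC and -2.31 in EpiLC, the lowest of all members in mESC, and the fitted value of -2.06 (SE 0.16) missed the threshold over all genes (limma adjusted p = 0.0689).

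Epha2, which binds A-class ephrins and is known from epithelia and the epiblast, was lowest with both inhibitors in each state. It was at 419, 535 and 199 in mESC and 919, 781 and 468 in EpiLC, and the states overlapped. It rose in EpiLC by 0.97 (SE 0.16, limma adjusted p = 0.0232), a call lost without the untreated pair, without the pair with both inhibitors and with a constant of 4. The fitted difference for PD on CHIR was -1.08 (SE 0.20, limma adjusted p = 0.59).

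Epha7 was the 1 Eph receptor at least 2-fold higher with CHIR in both states. It was at 43.3, 121 and 61.1 in mESC and 139.7, 289.9 and 202 in EpiLC, with no overlap of the states. It rose in EpiLC by 1.56 (SE 0.13, limma adjusted p = 0.00445). The CHIR difference was 1.48 in mESC and 1.05 in EpiLC (1.27, SE 0.16, limma adjusted p = 0.493 over both), and the EpiLC value was 0.98 after quantile normalization. Both states were lower again with PD, by -0.99 and -0.52.

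Epha4, a receptor that binds A-class and B-class ephrins, was the Eph receptor that fell. It was at 475, 482 and 642 in mESC and 65.9, 207 and 156 in EpiLC, without overlap. It fell by 2.04 (SE 0.30, limma adjusted p = 0.0165). CHIR set it higher by 1.65 in EpiLC, with 0.02 in mESC. Ephb3, a receptor of B-class ephrins, had a like pattern in EpiLC, at 64.3, 155 and 86.2 against 162, 167 and 189 in mESC, with a CHIR difference of 1.27 in EpiLC and 0.05 in mESC. It was not called between the states over all 3 treatments and was called without the CHIR pair.

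Ephb4, the receptor of Efnb2, was at 228, 264 and 318 in mESC and 285, 454 and 516 in EpiLC. It rose in EpiLC by 0.60 (SE 0.13, limma adjusted p = 0.0483), and the call was lost without the CHIR pair, without the pair with both inhibitors and with a constant of 4. Its ligand Efnb2 had a fitted state difference that was not called, so receptor and ligand did not share a call. Epha8 was at 83.7 in untreated EpiLC and 41.6 with both inhibitors (-1.01), and at 55.0 to 59.2 in mESC. Epha10 and Ephb1 varied least of the Eph receptors, with the 13 receptors spanning 0.26 to 3.97.

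**Figure D4:**
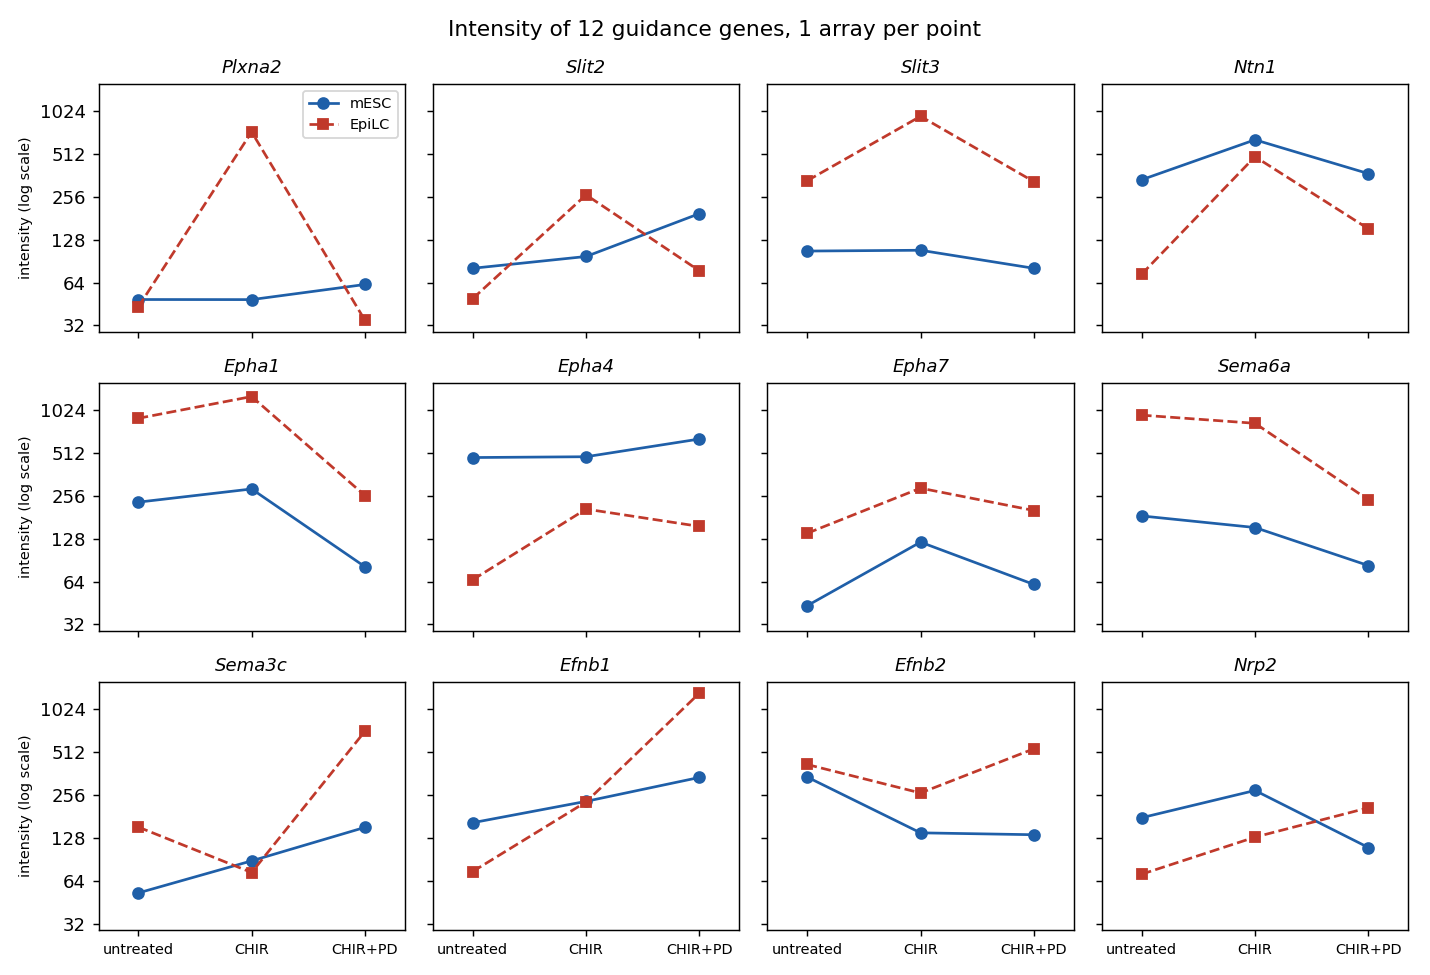
Intensities (log scale) of 12 members chosen after their values were seen, by treatment; circles are mESC, squares EpiLC, 1 array per point and no error. Plxna2 is at 730.1 on the EpiLC CHIR array and between 34.7 and 62.0 on the other 5, while Epha1 and Sema6a are lowest with both inhibitors in each state.

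Semaphorins held 4 of the 12 state calls. Sema6a, a transmembrane ligand of Plxna2 and Plxna4, was at 185, 153 and 82.9 in mESC and 944, 827 and 239.9 in EpiLC. The states did not overlap, and both inhibitors together gave the lowest value in each state. Sema6a rose in EpiLC by 2.10 (SE 0.20, limma adjusted p = 0.00528). PD on CHIR was followed by -0.89 in mESC and -1.79 in EpiLC (fitted -1.34, SE 0.24, limma adjusted p = 0.572).

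Sema4b fell in EpiLC and responded little to the inhibitors. It was at 656, 512 and 636 in mESC and 200.1, 161 and 162 in EpiLC. The states lay wide apart, and the fitted fall was by 1.79 (SE 0.11, limma adjusted p = 0.00206), the lowest p among members. The treatment differences of Sema4b lay between -0.36 and 0.31. Sema5a, a transmembrane semaphorin with thrombospondin repeats, was at 41.5, 45.5 and 30.6 in mESC and 89.5, 98.5 and 91.5 in EpiLC, and rose by 1.27 (SE 0.13, limma adjusted p = 0.00691). Sema4c, a ligand of Plxnb2, was at 103, 111 and 112 in mESC and 162, 246 and 217 in EpiLC, and rose by 0.91 (SE 0.13, limma adjusted p = 0.0159), a call lost without the CHIR pair.

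Sema3c, a secreted semaphorin that signals through neuropilins with plexins, was the semaphorin with the widest range. It was at 52.4, 88.1 and 152 in mESC and 152, 73.0 and 718 in EpiLC. Each inhibitor step was upward in mESC, while in EpiLC CHIR alone went with the lowest value and both inhibitors with the highest. The CHIR difference was 0.75 in mESC and -1.06 in EpiLC, and PD on CHIR was followed by 0.78 and 3.30. On the same EpiLC array with both inhibitors, 1 of 8 neural markers (Sox1), 2 of 5 trophoblast markers (Krt7, Krt18) and 2 of 6 fibroblast markers (Col1a1, Acta2) were at least 2-fold above the CHIR array, and their part in the values of Sema3c and Efnb1 was not tested. Of the neural list, Map2 (-0.49), Dcx (-0.29), Neurog2 (-0.17), Pax6 (-0.08) and Neurod1 (-0.03) were lower than on the CHIR array. Tubb3 (0.66) and Elavl3 (0.13) were higher by less than 2-fold. Fibroblast markers summed to 651 with CHIR and 1429 with both inhibitors in EpiLC. Of that list Thy1 (-0.74) and Col1a2 (-0.13) were lower at this step, and Col3a1 (0.17) and Postn (0.25) were little higher. Trophoblast markers summed to 1934 and 3790.0 in EpiLC, with Elf5 at -0.06. Their sum was also higher at this step in mESC, at 2007 and 3573.

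Sema3e, the secreted ligand of Plxnd1, was at 130.5, 110.0 and 74.7 in mESC and 299, 141 and 210.2 in EpiLC. It was highest in untreated EpiLC, and its state difference of 1.01 (SE 0.22) missed the threshold (limma adjusted p = 0.0527). Its receptor Plxnd1 spanned only 0.48. Sema7a, a lipid-anchored semaphorin that binds Plxnc1 and integrins, was at 137 with CHIR in EpiLC and between 52.5 and 65.7 on the other 5 arrays. Sema3b, named after its values were seen, had the same size of step with PD in both states (0.61 and 0.60) and was not called over all genes (limma adjusted p = 0.605). Sema4f and Sema3a varied least of the 20 semaphorins.

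Plxna2, a receptor for Sema6a and co-receptor for secreted semaphorins, had the largest single difference of the 66 members. It was at 48.6, 48.6 and 62.0 in mESC and 43.1, 730.1 and 34.7 in EpiLC. The EpiLC CHIR array alone was high, and the other 5 values were below the median of their arrays (60.5 to 65.2), where the constant matters most for a difference. CHIR in EpiLC gave a log2 difference of 4.08 and PD on CHIR one of -4.40, against 0.00 and 0.35 in mESC. The sum of the streak and mesoderm markers had the same order on the EpiLC arrays (950, 10709 and 611, untreated, CHIR and both inhibitors). Singly, Mixl1, Msgn1, Lhx1 and Eomes had this order, and Tbx6, Mesp1 and Hand1 did not. Hand1 was lowest with CHIR (61.3, 39.3 and 52.9). The part of these markers in the value of Plxna2 was not tested. Its ligand Sema6a was at 827 on the array where Plxna2 was high.

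Plxna3, the other plexin that spanned 2-fold, was at 79.4, 74.0 and 57.3 in mESC and 128, 98.5 and 77.8 in EpiLC, and rose by 0.51 (SE 0.11, limma adjusted p = 0.049), a call that was lost under each of the 5 alternatives named above. The other 7 plexins stayed below 2-fold in their value per gene, and the median range of the 9 was 0.54. For Plxnb1 that value averages 2 probes that disagree. The brighter was at 72.7 in mESC and 151.5 in EpiLC with both inhibitors, more than 2-fold apart. The dimmer was at 41.5 and 27.2 on the same arrays. Ephb1, Plxna1 and Plxnb1 had 2 probes each, and with the brighter probe alone the same 12 members were called between the states.

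Of the neuropilins, co-receptors of secreted semaphorins and of VEGF, Nrp2 varied and Nrp1 did not pass 2-fold. Nrp2 was at 177, 275 and 109 in mESC and 71.0, 129 and 208 in EpiLC. In mESC it was highest with CHIR and lowest with both inhibitors, and in EpiLC it was higher at each step. PD on CHIR was followed by -1.33 in mESC and 0.69 in EpiLC. The TCF/LEF letters in its upstream window, shown above, stand beside CHIR differences of 0.64 and 0.87. Nrp1 spanned 0.24, from 56.2 to 66.3.

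Of the Slit ligands, Slit2 and Slit3 varied and Slit1 did not pass 2-fold. Slit2 was at 80.5, 97.5 and 195 in mESC and 49.3, 264 and 77.2 in EpiLC. Within mESC the array with both inhibitors was highest, and within EpiLC the CHIR array was. CHIR gave log2 differences of 0.28 in mESC and 2.42 in EpiLC, and PD on CHIR gave 1.00 and -1.77, opposite directions of at least 2-fold, of which the mESC value became 0.74 with a constant of 64. EpiLC against mESC was -0.71 untreated, 1.44 under CHIR and -1.34 under both inhibitors.

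Slit3 was at 106, 108 and 80.5 in mESC and 332, 940.5 and 327 in EpiLC. It was higher on each EpiLC array than on each mESC array, and it rose in EpiLC by 2.26 (SE 0.28, limma adjusted p = 0.0107). CHIR gave 0.02 in mESC and 1.50 in EpiLC, and PD on CHIR -0.42 and -1.53. Slit1 lay between 55.6 and 95.2 on the 6 arrays. Slit2 and Slit3 shared the high EpiLC CHIR array with the sum of the streak and mesoderm markers. The part of these markers in the Slit values was not tested.

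The Robo receptors of the Slits stayed within 2-fold. Robo1 was at 214, 219.9 and 216 in mESC and 195, 269.9 and 163 in EpiLC, with a range of 0.73, the widest of the 4. Robo3, named as the one with the narrowest range, lay under the lower quartile on all 6 arrays. Robo4, known from endothelium, spanned 0.35 and was at 51.4 to 65.4.

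Netrin-1 (Ntn1) was the netrin that varied most. It was at 337, 643 and 372 in mESC and 73.1, 489.5 and 153 in EpiLC. CHIR gave the highest value in both states, and untreated EpiLC had the lowest. The CHIR difference was 0.93 in mESC and 2.74 in EpiLC, with a fitted 1.84 (SE 0.40, limma adjusted p = 0.581), and PD on CHIR was followed by -0.79 and -1.68. Untreated EpiLC were lower than untreated mESC by -2.20 on the log2 scale, while the difference under CHIR was -0.39. Without the CHIR pair Ntn1 was called as lower in EpiLC, at -1.75.

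Ntn3 was at 73.1 in EpiLC with both inhibitors and between 32.7 and 44.6 on the other 5 arrays, and its difference of 1.05 for PD on CHIR became 0.54 with a constant of 64. The 4 Unc5 receptors, which mediate repulsion from netrin, stayed within 0.17 (Unc5c) to 0.57 (Unc5b) on the log2 scale. Unc5b was at 479, 454 and 451 in mESC and 341, 323 and 404 in EpiLC. Dcc, the attractive netrin receptor and no member, lay between 17.9 and 36.7 on the 6 arrays, and the related receptor neogenin (Neo1) was at 374, 622 and 649.9 in mESC and 319.6, 508 and 513 in EpiLC, both named after their values were seen.

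**Figure D5:**
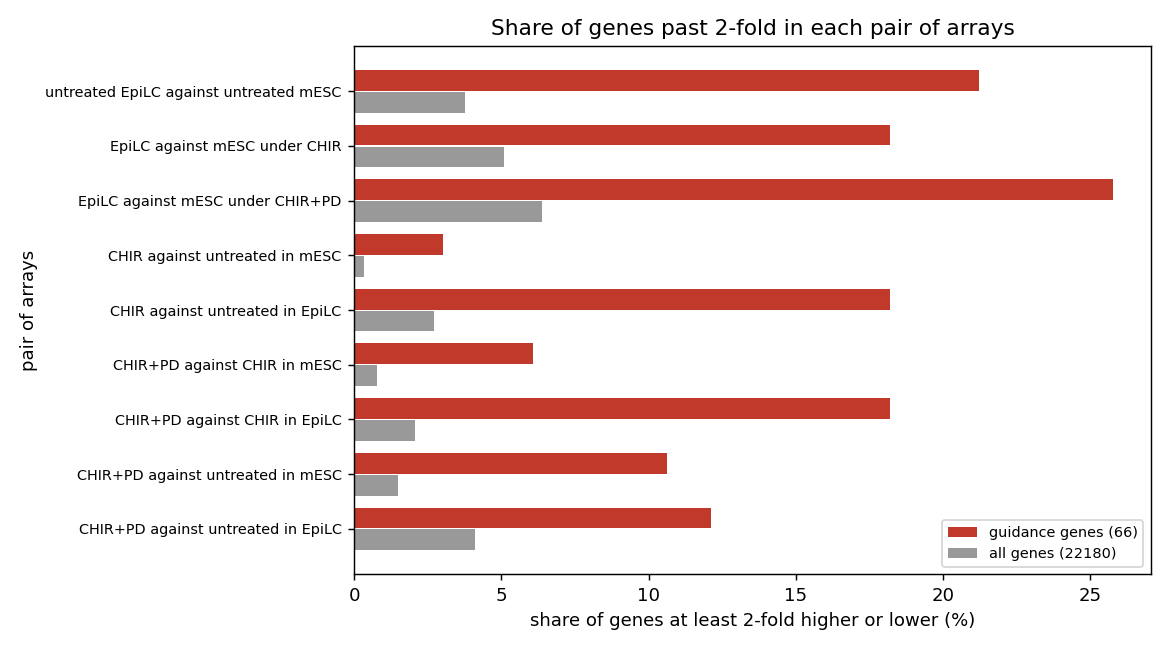
Share of genes at least 2-fold higher or lower in each of the 9 pairs of single arrays, for the 66 members (red) and all 22180 genes (grey), with no error because each pair is 1 array against 1 array. The share of members runs from 3.03% (CHIR in mESC) to 25.8% (EpiLC against mESC under both inhibitors). It is above that of all genes, which include a larger share of very dim genes, in each pair.

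Other genes of guidance signalling, a list of 58 co-receptors, further ligands and cytoplasmic effectors with 55 measured, included 12 called between the states. Of these 9 rose and 3 fell, with a median of 0.17 over the 55 (8.30% of all genes were called). The E3 ligase gene Pdzrn3 rose by 1.29 (SE 0.22, limma adjusted p = 0.0256), and Dpysl2, which encodes the semaphorin effector CRMP2, rose by 1.11 (SE 0.17, limma adjusted p = 0.0187). Enah, an actin regulator downstream of netrin and Robo receptors, fell by 1.21 (SE 0.11, limma adjusted p = 0.00474). For CHIR and for PD on CHIR 0 of 55 were called by limma, with 8 each at an unadjusted p under 0.05 (7.27% and 5.77% of all genes).

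In EpiLC, CHIR was followed by at least 2-fold higher values in 4 of the 55 and lower in 0 (1.77% and 0.929% of all genes). Ablim1, an actin-binding protein of the netrin pathway, was higher by 1.70, the Unc5 ligand gene Flrt3 by 1.47 and the ephrin sheddase gene Adam10 by 1.39. In mESC 0 of 55 differed that far with CHIR (0.338% of all genes). With PD added to CHIR, Ablim1 was at -1.24 and Rnd3 at 1.09 in EpiLC, and Flrt3 was at -1.14 in mESC. Over all genes, 2.05% in EpiLC and 0.775% in mESC differed at least 2-fold at this step. Ablim1 thus shared its high EpiLC CHIR array with Plxna2 and Slit2.

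Of the 66 members, 42 (63.6%) were below 2-fold in all 9 pairs of arrays, against 88.7% of all genes. A range under 0.5 on the log2 scale over the 6 arrays was found in 22 members (33.3%) and in 51.3% of all genes. The narrowest were the netrin receptors Unc5c and Unc5d. Precision is limited by the small number of arrays, 1 in each group.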

How the data were processed

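RNA of 6 cultures was labelled with the WT PLUS kit, measured on Affymetrix Mouse Gene 2.0 ST arrays and analysed in GeneSpring GX 11.5, per the labels and the series' design text. The deposited values are linear intensities, which the authors had normalized between arrays. How they did so is not given in the sources used here. Of 33793 probes, 23521 carried 1 gene symbol. Log2 intensities were averaged per symbol, giving 22180 genes, without a filter on dim genes. Raw scans were not used here.

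The additive model of state and treatment was fitted to all 6 arrays with limma 3.58.1 in R 4.3.3 and has 2 residual degrees of freedom. Its residual is the departure from additivity, so error is large for genes that respond in 1 state alone. Adjusted p-values are two-sided Benjamini-Hochberg values over all genes, with a threshold of 0.05. The script was tested on simulated data. Single pairs of arrays give sizes without a test. Members, lists and tests were chosen with earlier results of these data known. Named genes are Slit2, each member called, and up to 3 per family and pair of arrays that differ at least 2-fold, with least-varying members and, of other lists, up to 3 per comparison. Further names are said to be chosen after their values were seen.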

Additional observations from a re-analysis of the deposited data

Results flagged for a closer look

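Slit2 had opposite differences of at least 2-fold in the states when PD was added to CHIR, 1.00 in mESC and -1.77 in EpiLC. Its state difference also turned between treatments, at 1.44 under CHIR and -1.34 under CHIR with PD. Efnb1 was at -1.14 between the untreated states and at 1.97 under CHIR with PD. These differences were not tested, because each group is 1 array.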

How the results depend on the processing

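The labels give no replicate numbers to use as a block, so the arrays of the 2 states were paired only by the treatment term of the model. The 13 counts of members (4 fitted comparisons and 9 pairs) stayed within 1.5 times under a constant of 4, quantile normalization and the brightest probe per gene. They also did so with dim genes left out, a setting added for the pairs after the data had been seen. That setting kept 35 members and 11090 genes. The share of all genes called between the states was then 16.7% in place of 8.30%. For members it was 37.1% (13 of the 35 kept) in place of 18.2%. Between the untreated states, the share of all genes at least 2-fold apart was 5.96% in place of 3.76%. That of members was 37.1% (13 of the 35 kept) in place of 21.2%. With a constant of 64 in place of 16, the counts became 8 between the untreated states, 7 between the states under CHIR, 1 for CHIR in mESC, 7 for CHIR in EpiLC, and 2 in mESC and 5 in EpiLC for CHIR with PD against untreated. The 12 members called between the states became 0 without moderation and 6 without a treatment term. Trend and robust moderation gave 1 member for PD on CHIR and 1 for CHIR with PD against untreated, and without the CHIR pair the last comparison gave 2 (Epha1 lower, Sema3c higher). Over all genes, the 1841 called between the states became 1016 with a constant of 4, 0 without moderation, 945 without the CHIR pair and 1209 without the pair with both inhibitors. The 4 called for PD on CHIR became 1 with a constant of 64, 7 with trend and robust moderation and 0 without moderation. The 6 called for CHIR with PD against untreated became 1 with a constant of 4 or 64, 53 with trend and robust moderation, 0 without moderation and 48 without the CHIR pair, and the 0 for CHIR became 1 without the pair with both inhibitors. The genes at least 2-fold apart numbered 835 between the untreated states (447 with a constant of 64), 1127 between the states under CHIR (663), and 1418 under both inhibitors (804, and 2236 with a constant of 4). With constants of 4, 16 and 64 they numbered 300, 75 and 27 for CHIR in mESC, 1013, 598 and 343 for CHIR in EpiLC, 425, 172 and 73 for PD on CHIR in mESC, 894, 455 and 255 in EpiLC, and for both inhibitors against untreated 681, 325 and 157 in mESC and 1532, 911 and 511 in EpiLC. The cause of these shifts was not tested. Of 98 differences of named members, 33 of single pairs fell below 2-fold and 1 fitted call was lost with a constant of 64, 3 fell below 2-fold after quantile normalization, and 3 calls were lost with a constant of 4. None of the 98 changed sign under these 3 alternatives or with the brightest probe. Intensities near the lowest value of 16 carry compressed differences, and no detection calls were used here.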
